A study of Homo sapiens with 9 samples.

Results

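The genes of cholesterol and fatty acid synthesis were followed in MKN45 cells, a line grown from a human gastric cancer, that carried an activated form of the transcriptional coactivator YAP1. A list of 39 genes was read from the arrays by gene symbol, each gene by its probe with the highest mean signal. Of these, 37 were measured and passed the filter on dim probes, among 16180 genes tested in all. They were 17 of 18 listed sterol enzymes, 14 of 15 listed fatty acid enzymes and all 6 listed regulators, and FDFT1 and ACSL3 were not analysed here. The 9 single-colour bead arrays formed 3 groups of 3: cells with a YAP-S127A vector, cells with a control vector, and mock cells. YAP-S127A carries alanine in place of a serine that the Hippo kinases phosphorylate, and the labels name neither the promoter of the vectors nor how the cells received them, nor a time after delivery. Whether the 3 arrays of each group stem from independent cultures is not stated in the labels, and the spread behind the p-values may therefore be technical.

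Cells build cholesterol from acetyl-CoA through the mevalonate pathway, then through squalene and lanosterol. Fatty acids are built from the same acetyl-CoA by carboxylation, chain synthesis, elongation and desaturation. Transcription of both sets of enzymes is driven largely by the SREBP factors, which leave the endoplasmic reticulum with the escort protein SCAP when sterols are scarce and are held back there by the INSIG proteins when sterols are plentiful. Many of these promoters hold a sterol regulatory element together with a CCAAT box, the site of the factor NF-Y.

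Per array, the median signal over probes was 107 to 136 intensity units. All 7 epithelial markers lay above the upper quartile of all probes, against 0 of 5 fibroblast markers and 1 of 4 measured leukocyte markers, the last being LYZ, the lysozyme gene, which gastric epithelium also expresses. CCN1, an established YAP target, averaged 9.004 ± 0.17 in YAP-S127A, 6.66 ± 0.09 in vector and 6.35 ± 0.12 in mock arrays (normalized log2 intensity, SD, n = 3). The single YAP1 probe failed the filter on dim probes and does not check the labels, with means of 6.12 in YAP-S127A, 6.04 in vector and 6.08 in mock arrays. Mock array 1 lay far from the rest on the second principal component over all genes, at 17.9 where the others lay between −9.94 and 3.15, so for several genes the values without it are given too.

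Against mock cells, 4 of the 37 genes fell and 0 rose, and against vector cells 1 fell and 0 rose (limma, adjusted p under 0.05 over all genes tested). The genes lower than in mock cells were HMGCS1, which makes the HMG-CoA that feeds the mevalonate pathway, INSIG1, the sterol-dependent brake on SREBP transport, ACSS2, which makes cytosolic acetyl-CoA from acetate, and SCD, the desaturase that makes oleate and palmitoleate. SCD was the gene lower than in both controls. Over all genes tested, 4.25% were called against mock (2.07% lower, 2.18% higher) and 3.45% against vector (1.7% lower, 1.76% higher). The share of the 37 genes called was 10.8% against mock, and 2.7% against vector, close to the background. The share lower than in both controls was 2.7% of the 37 genes, where 1.03% of all genes were lower and 2.37% were called in either direction against both. These are bulk RNA samples, so fewer cells with a transcript and less of it per cell cannot be told apart. Without mock array 1 the count against mock was 2, the genes ACSS2 and INSIG1.

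The promoters of these 4 genes are shown because all 4 were lower in the same comparison. Each window, from RefSeq on GRCh38.p14, runs from 250 bases before to 50 bases after a transcription start, written 5′ to 3′ on the gene's strand, and for HMGCS1 and ACSS2 it is the first of 2 listed. Capitals mark matches on either strand to CACNCCAC, letters shared with the classical sterol regulatory element, to the CCAAT box (CCAAT) and to the E-box (CACGTG), which SREBPs can also bind.
HMGCS1, chr5:43313363-43313662, minus strand: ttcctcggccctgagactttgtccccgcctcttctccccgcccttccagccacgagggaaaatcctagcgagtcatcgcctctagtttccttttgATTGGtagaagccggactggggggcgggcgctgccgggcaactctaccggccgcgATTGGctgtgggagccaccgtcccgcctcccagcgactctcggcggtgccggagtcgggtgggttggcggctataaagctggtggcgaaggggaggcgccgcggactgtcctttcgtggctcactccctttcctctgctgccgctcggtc
INSIG1, chr7:155297628-155297927, plus strand: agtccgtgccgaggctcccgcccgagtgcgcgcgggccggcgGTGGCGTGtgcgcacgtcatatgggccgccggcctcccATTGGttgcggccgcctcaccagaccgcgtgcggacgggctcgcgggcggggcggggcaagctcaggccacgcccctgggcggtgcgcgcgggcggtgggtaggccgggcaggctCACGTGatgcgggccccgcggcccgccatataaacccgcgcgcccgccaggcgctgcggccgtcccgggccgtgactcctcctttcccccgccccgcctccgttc
ACSS2, chr20:34874739-34875038, plus strand: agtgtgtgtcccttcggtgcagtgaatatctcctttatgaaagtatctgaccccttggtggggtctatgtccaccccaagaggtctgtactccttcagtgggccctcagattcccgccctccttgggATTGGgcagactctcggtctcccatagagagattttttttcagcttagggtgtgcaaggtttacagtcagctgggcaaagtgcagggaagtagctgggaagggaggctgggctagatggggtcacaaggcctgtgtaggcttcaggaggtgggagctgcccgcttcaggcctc
SCD, chr10:100346983-100347282, plus strand: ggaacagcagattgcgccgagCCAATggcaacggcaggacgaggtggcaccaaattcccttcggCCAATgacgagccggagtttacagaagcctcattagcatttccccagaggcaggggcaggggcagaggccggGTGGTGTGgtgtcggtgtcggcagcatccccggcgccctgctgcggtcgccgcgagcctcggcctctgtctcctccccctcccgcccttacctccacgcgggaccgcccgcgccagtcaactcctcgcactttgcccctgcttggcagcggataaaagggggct
The HMGCS1 window held 2 CCAAT boxes, INSIG1 held 1 sterol regulatory core, 1 CCAAT box and 1 E-box, ACSS2 held 1 CCAAT box, and SCD held 1 sterol regulatory core and 2 CCAAT boxes. GGAATG, the core letters of TEAD sites, through which YAP reaches DNA, was searched on both strands too and was not in these 4 windows. The second windows of HMGCS1 and ACSS2, not shown, held no match to any of these motifs, the CCAAT box and GGAATG included. No match overlapped a match to another motif. A match is a run of letters and not a shown binding site.

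Windows were found for 35 of the 39 listed genes, 51 windows in all. CCAAT stood in 15 of the 20 windows of sterol enzymes (75%), in 11 of the 24 of fatty acid enzymes (45.8%) and in 3 of the 7 of regulators (42.9%), against 34.6% of all 35116 promoter windows. The sterol regulatory core stood in 3, 4 and 2 of these windows in the same order, 17.6% of the 51, against 5.87% of all windows. The E-box stood in 5 of the 51 (9.8%, against 7.26% of all). For GGAATG the shares were 15.7% of the 51 and 14% of all windows. Windows of 1 gene can overlap, so these shares are descriptions.

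HMGCS1 read 10.27, 10.39 and 10.65 on the YAP-S127A arrays, 10.54, 10.44 and 10.75 on the vector arrays, and 11.25, 10.92 and 10.88 on the mock arrays (normalized log2 intensity). Every YAP-S127A array lay below every mock array, while the YAP-S127A and vector arrays overlapped. The log2 difference was −0.58 ± 0.12 against mock (SE, n = 3 per group), or 1.49-fold lower, with adjusted p = 0.00691 (limma). Against vector it was −0.14 ± 0.12 (adjusted p = 0.651), and its 95% interval of −0.40 to 0.11 left room for a fall as well as for a small rise. Vector arrays themselves stood 0.44 below mock on the log2 scale, a difference of −0.44 ± 0.12 that did not pass (adjusted p = 0.511). Without mock array 1 the difference from mock was −0.46 with adjusted p = 0.0537, and without YAP-S127A array 1 the adjusted p was 0.0618.

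INSIG1 showed the same order of groups, with 9.96, 9.86 and 10.15 on YAP-S127A arrays, 10.13, 10.21 and 10.37 on vector arrays, and 10.52, 10.40 and 10.47 on mock arrays. All YAP-S127A arrays lay below all mock arrays, and YAP-S127A array 3 lay just above vector array 1. The gene fell by 0.48 ± 0.11 against mock on the log2 scale (1.39-fold, adjusted p = 0.0103, limma), and the difference from vector was −0.25 ± 0.11 (adjusted p = 0.242). A second, dimmer INSIG1 probe did not share this: it differed by −0.06 from mock and by 0.03 from vector. With the mean of both probes the difference from mock was −0.27 and was no longer called (adjusted p = 0.116). The call also ended without YAP-S127A array 1 (adjusted p = 0.0535) or array 2 (0.0815), and it held without mock array 1 (0.0435).

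ACSS2 read 9.57, 9.49 and 9.77 on YAP-S127A arrays, 9.80, 10.02 and 9.99 on vector arrays, and 10.26, 10.08 and 10.20 on mock arrays. The YAP-S127A arrays lay below all 6 control arrays. ACSS2 fell by 0.57 ± 0.11 against mock on the log2 scale (1.48-fold, adjusted p = 0.00262, limma). The difference from vector was −0.33 ± 0.11 and did not pass (adjusted p = 0.109), with a 95% interval of −0.55 to −0.10 before any adjustment for the number of genes. A second bright probe differed by −0.59 from mock and −0.30 from vector, and a dimmer probe past the filter by −0.09 and 0.02. The call against mock held in each of the 21 other settings and left-out arrays, with adjusted p from 0.00104 to 0.0302.

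SCD read 12.51, 12.57 and 12.43 on YAP-S127A arrays, 12.90, 12.85 and 12.92 on vector arrays, and 13.07, 12.83 and 12.76 on mock arrays. The YAP-S127A arrays lay below all 6 control arrays, and the vector and mock arrays overlapped. SCD fell by 0.39 ± 0.105 against vector (1.31-fold, adjusted p = 0.0408) and by 0.38 ± 0.105 against mock (1.30-fold, adjusted p = 0.0378, both limma), and vector differed from mock by 0.004 ± 0.105. Both calls lay near the threshold. Against vector the call ended without any 1 of the 6 arrays compared, with adjusted p from 0.0813 to 0.148. Against mock it ended without any YAP-S127A array, mock arrays 1 or 2, or vector array 1, with adjusted p from 0.0521 to 0.19 (−0.29 without mock array 1). SCD had a single probe, and the part of its processed pseudogene SCDP1 in that signal was not tested.

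**Figure D1:**
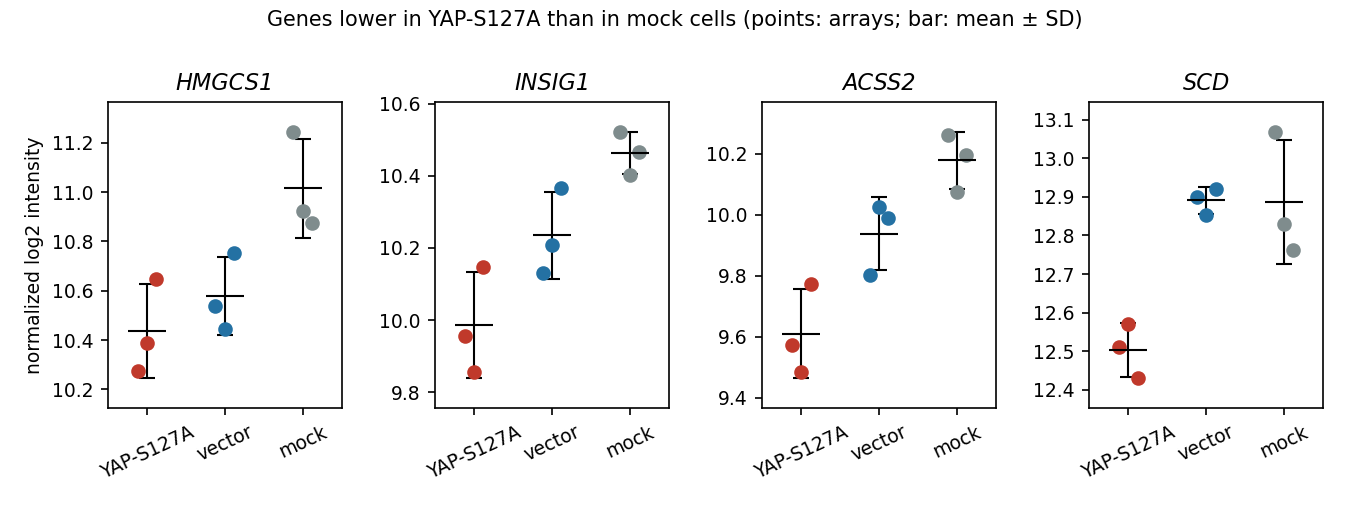
Normalized log2 intensity (vertical axis) of HMGCS1, INSIG1, ACSS2 and SCD on each array of the YAP-S127A, vector and mock groups, with each gene on its own scale. Points are arrays and bars are the group mean ± SD (n = 3). For HMGCS1, INSIG1 and ACSS2 the vector mean lies between those of YAP-S127A and mock arrays, while for SCD the vector and mock means differ by 0.004.

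In 6 of the 37 genes the YAP-S127A arrays stood apart from all 6 control arrays (16.2%, against 11.3% of all genes tested). The 4 that lay below were ACSS2, SCD, ACAT2 and ACSL5, and the 2 that lay above were CYP51A1 and ELOVL1, where 5.64% and 5.62% of all genes lay below and above. CYP51A1, the lanosterol demethylase, read 10.07, 10.09 and 10.21 on YAP-S127A arrays, 9.72, 9.72 and 9.87 on vector arrays, and 9.89, 10.04 and 9.60 on mock arrays. It had the highest log2 difference from vector of the 37 genes, 0.35 ± 0.11 (adjusted p = 0.102), and differed by 0.28 ± 0.11 from mock (adjusted p = 0.193), so neither passed. With the 6 arrays of YAP-S127A and vector alone in the fit, its adjusted p against vector was 0.0472.

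Along the sterol pathway, 0 of 17 enzymes rose and 0 fell against vector (1 at an unadjusted p under 0.05), and 0 rose and 1 fell against mock (7 at an unadjusted p under 0.05). CYP51A1 was the 1 against vector and among the 7 against mock, and lay above both controls. The others of the 7 lay below mock. Over all genes tested, 15.6% had an unadjusted p under 0.05 against vector and 17% against mock. The median log2 difference of the 17 was −0.08 against vector and −0.18 against mock, where that of all genes tested was −0.01 and −0.002. Of the 17, 13 had a difference below 0 against vector and 14 against mock, or 76.5% and 82.4%, against 51.4% and 50.6% of all genes. Vector against mock also gave 13 of the 17 below 0 (76.5%), with a median of −0.077. In that comparison of the controls 4 of the 17 had an unadjusted p under 0.05, against 5.63% of all genes. Over the 37 genes the share below 0 was 67.6% in each of the 3 comparisons, vector against mock included, where it was 48.8% of all genes. The YAP-S127A arrays are shared by both comparisons.

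At the entry to the pathway, ACAT2, the cytosolic thiolase that joins acetyl-CoA units, read 9.70, 9.55 and 9.61 on YAP-S127A arrays, 9.74, 9.88 and 9.72 on vector arrays, and 9.86, 9.89 and 9.88 on mock arrays. Its YAP-S127A arrays lay below all controls, with array 1 close to the lowest vector array. It differed by −0.16 ± 0.10 from vector and −0.26 ± 0.10 from mock (adjusted p = 0.470 and 0.169). A dimmer ACAT2 probe went the other way, by 0.16 and 0.12. Of the enzymes that turn mevalonate into isoprenoids, the kinases MVK and PMVK differed from mock by 0.06 and −0.01 on the log2 scale, the decarboxylase MVD by −0.20, the isomerase IDI1 by 0.01 and FDPS, which makes farnesyl diphosphate, by −0.05 (0.06 without mock array 1). None of these 5 genes passed in a comparison. Against vector their log2 differences ran from −0.21 (PMVK) to 0.25 (FDPS). FDPS had 8.87, 9.29 and 9.10 on YAP-S127A arrays, 8.63, 8.92 and 8.97 on vector arrays, and 9.36, 9.09 and 8.97 on mock arrays, so its 3 groups overlapped. The MVK probe averaged 6.61 over all arrays, near the filter level of 6.18, where background left in the signal shrinks differences.

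From squalene to lanosterol, SQLE, the squalene epoxidase, read 10.58, 10.56 and 10.62 on YAP-S127A arrays, 10.79, 10.59 and 10.48 on vector arrays, and 10.96, 10.81 and 10.76 on mock arrays. All YAP-S127A arrays lay below all mock arrays and within the range of the vector arrays, with log2 differences of −0.26 ± 0.11 from mock (adjusted p = 0.205) and −0.03 ± 0.11 from vector. A dimmer SQLE probe differed by −0.09 from mock and 0.06 from vector. LSS, the lanosterol synthase, differed by −0.27 ± 0.12 from mock and −0.24 ± 0.12 from vector (adjusted p = 0.221 and 0.324). Both dimmer LSS probes had a difference above 0 in both comparisons, so the gene's probes disagree.

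HSD17B7, the 3-keto reductase of the C4 demethylation steps, varied most within a group. It read 11.62, 11.86 and 11.82 on YAP-S127A arrays, 11.56, 11.74 and 12.02 on vector arrays, and 12.69, 12.24 and 11.85 on mock arrays. The mock SD was 0.42, against 0.13 in YAP-S127A and 0.23 in vector arrays. YAP-S127A differed from mock by −0.50 ± 0.15 on the log2 scale (adjusted p = 0.0732) and from vector by −0.005 ± 0.15, and vector differed from mock by −0.49 ± 0.15 (adjusted p = 0.627). The difference of YAP-S127A from mock was −0.28 without mock array 1 and −0.70 without mock array 3, which brought the adjusted p to 0.00524. Its near-identical transcribed pseudogene HSD17B7P2, chosen after its values were seen, had a probe of its own that differed by −0.13 ± 0.11 from mock, and the part of that RNA in the HSD17B7 signal was not tested.

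Of the other 6 late enzymes, 0 passed in a comparison, and all 6 had a log2 difference from mock below 0. They were the C4 demethylation enzymes MSMO1 (−0.21 against mock) and NSDHL (−0.07), the isomerase EBP (−0.18), the desaturase SC5D (−0.23), and the reductases DHCR7 (−0.09) and TM7SF2 (−0.13). Against vector their differences ran from −0.17 (EBP) to 0.005 (NSDHL). The 3 MSMO1 probes disagreed, the middle one at −0.36 and the dimmest at 0.16 against mock. SC5D had 8.90, 8.78 and 8.84 on YAP-S127A arrays, 8.86, 8.93 and 8.89 on vector arrays, and 9.14, 8.93 and 9.13 on mock arrays, with all YAP-S127A arrays below all mock arrays.

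**Figure D2:**
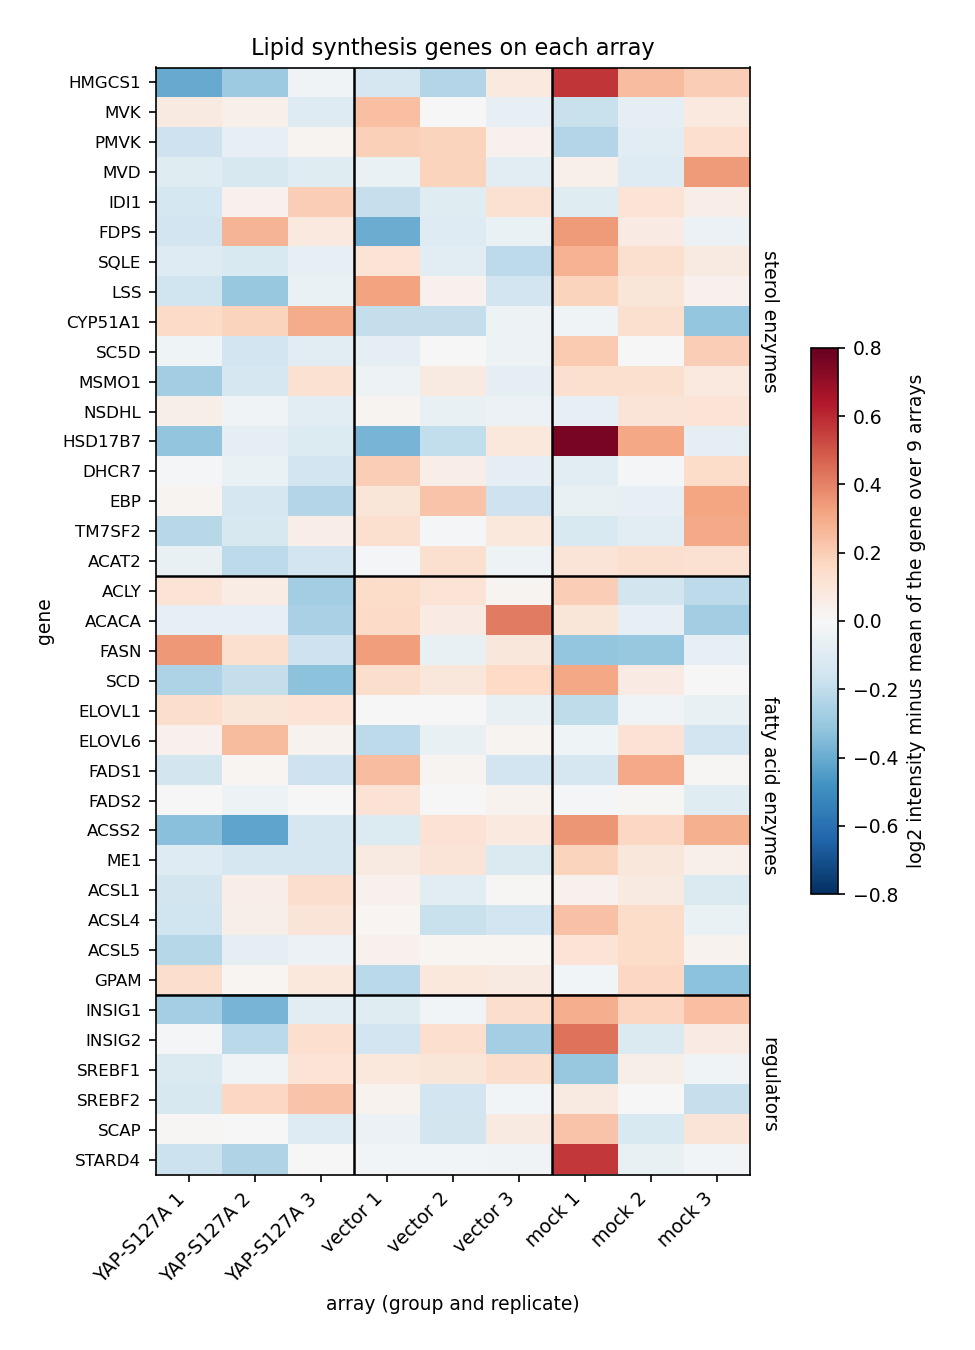
Log2 intensity of each of the 37 genes (rows) on each array (columns) as the difference from that gene's mean over the 9 arrays, red above and blue below the mean, in the order YAP-S127A, vector and mock. Lines part the groups and the roles. The darkest red cells lie on mock array 1 (HSD17B7, HMGCS1 and STARD4), and the rows of HMGCS1, ACSS2 and INSIG1 turn from blue on YAP-S127A arrays to red on mock arrays.

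Of the 14 fatty acid enzymes, 1 fell against vector and 2 fell against mock, SCD and ACSS2, and 0 rose in either comparison. Over all genes tested, 1.7% fell and 1.76% rose against vector, and 2.07% fell and 2.18% rose against mock. At an unadjusted p under 0.05 stood 3 of the 14 against vector and 6 against mock, where the shares of all genes were 15.6% and 17%. FASN and ELOVL1 were among the 6 and lay above mock. The median log2 difference of the 14 was −0.09 against vector and −0.02 against mock, and 7 of the 14 lay below 0 against mock (50%, against 50.6% of all genes). None of the 3 enzymes that lead from citrate to palmitate passed against either control. ACLY, which splits citrate to acetyl-CoA, differed by −0.13 ± 0.12 from vector and 0.02 ± 0.12 from mock, and its dimmer probe by −0.22 and −0.08. ACACA, the acetyl-CoA carboxylase, read 10.01, 10.01 and 9.81 on YAP-S127A arrays, 10.23, 10.14 and 10.49 on vector arrays, and 10.17, 10.01 and 9.79 on mock arrays. It lay below all vector arrays and overlapped the mock arrays, with log2 differences of −0.34 ± 0.12 (adjusted p = 0.126) and −0.05 ± 0.12 (adjusted p = 0.892). FASN, the fatty acid synthase, read 11.80, 11.58 and 11.29 on YAP-S127A arrays, 11.79, 11.39 and 11.54 on vector arrays, and 11.14, 11.15 and 11.39 on mock arrays. It differed by −0.02 ± 0.13 from vector and 0.33 ± 0.13 from mock (adjusted p = 0.971 and 0.173). For ACACA and FASN the vector arrays were thus the higher controls, by 0.29 ± 0.12 and 0.35 ± 0.13 over mock, and neither difference passed (adjusted p = 0.789 and 0.784). ME1, the malic enzyme that supplies NADPH, read 9.87, 9.84 and 9.84 on YAP-S127A arrays, 10.05, 10.08 and 9.86 on vector arrays, and 10.15, 10.06 and 10.02 on mock arrays, and its log2 differences of −0.14 and −0.23 did not pass (adjusted p = 0.54 and 0.244).

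The listed elongases, and the desaturases other than SCD, did not pass. ELOVL1, which extends very long chains, read 8.51, 8.46 and 8.48 on YAP-S127A arrays, 8.37, 8.36 and 8.31 on vector arrays, and 8.17, 8.34 and 8.31 on mock arrays. Its YAP-S127A arrays lay above all controls, with differences of 0.14 ± 0.10 and 0.21 ± 0.10 from vector and mock (adjusted p = 0.551 and 0.271). ELOVL6, which extends palmitate to stearate just before SCD acts, differed by 0.19 and 0.13 (adjusted p = 0.450 and 0.619), and its dimmer probe by −0.06 and −0.03. The polyunsaturated fatty acid desaturases FADS1 and FADS2 differed from mock by −0.16 and 0.02, the FADS2 probe averaging 6.44, near the filter level.

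The long-chain acyl-CoA synthetases, which activate fatty acids, and GPAM, the first acyltransferase of glycerolipid synthesis, did not pass either. ACSL5 read 8.73, 8.88 and 8.91 on YAP-S127A arrays, 8.99, 8.97 and 8.97 on vector arrays, and 9.07, 9.10 and 8.99 on mock arrays. Its YAP-S127A arrays lay below all controls, while its differences of −0.14 ± 0.10 and −0.21 ± 0.10 did not pass (adjusted p = 0.548 and 0.277), and both other ACSL5 probes past the filter had differences below 0 as well. ACSL1 and ACSL4 differed by 0.02 and −0.11 from mock. A dimmer ACSL4 probe past the filter went the other way, by 0.08 from mock. Against vector the 2 ACSL4 probes differed by 0.11 and, for the dimmer one, −0.18. GPAM differed by 0.14 from mock.

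Of the 6 regulators, 0 passed against vector (1 at an unadjusted p under 0.05, where the share of all genes was 15.6%). INSIG1 alone passed against mock, where 2.07% of all genes were called lower. At an unadjusted p under 0.05 stood 2 of the 6 against mock, INSIG1 and STARD4, where the share of all genes was 17%. INSIG2, the paralog of INSIG1, read 9.73, 9.52 and 9.87 on YAP-S127A arrays, 9.58, 9.87 and 9.47 on vector arrays, and 10.17, 9.62 and 9.80 on mock arrays, so that its groups overlapped. Its log2 difference from mock was −0.16 ± 0.14, with a 95% interval of −0.44 to 0.12, an interval that overlaps the one of INSIG1 (−0.70 to −0.26). The SREBP genes did not pass: SREBF1 differed by −0.12 ± 0.11 from vector and 0.08 ± 0.11 from mock, and SREBF2, on a dim probe with a mean of 6.59, by 0.14 ± 0.11 and 0.13 ± 0.11. A dimmer SREBF1 probe past the filter had the opposite signs, with 0.02 from vector and −0.006 from mock. For SCAP the values were 0.01 and −0.10. STARD4, which carries sterols between membranes, read 6.78, 6.71 and 6.95 on YAP-S127A arrays, 6.93, 6.93 and 6.92 on vector arrays, and 7.52, 6.89 and 6.93 on mock arrays. Mock array 1 alone stood high there, beside a log2 difference from mock of −0.30 ± 0.13 (adjusted p = 0.237), which was −0.098 ± 0.11 without that array (adjusted p = 0.774).

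**Figure D3:**
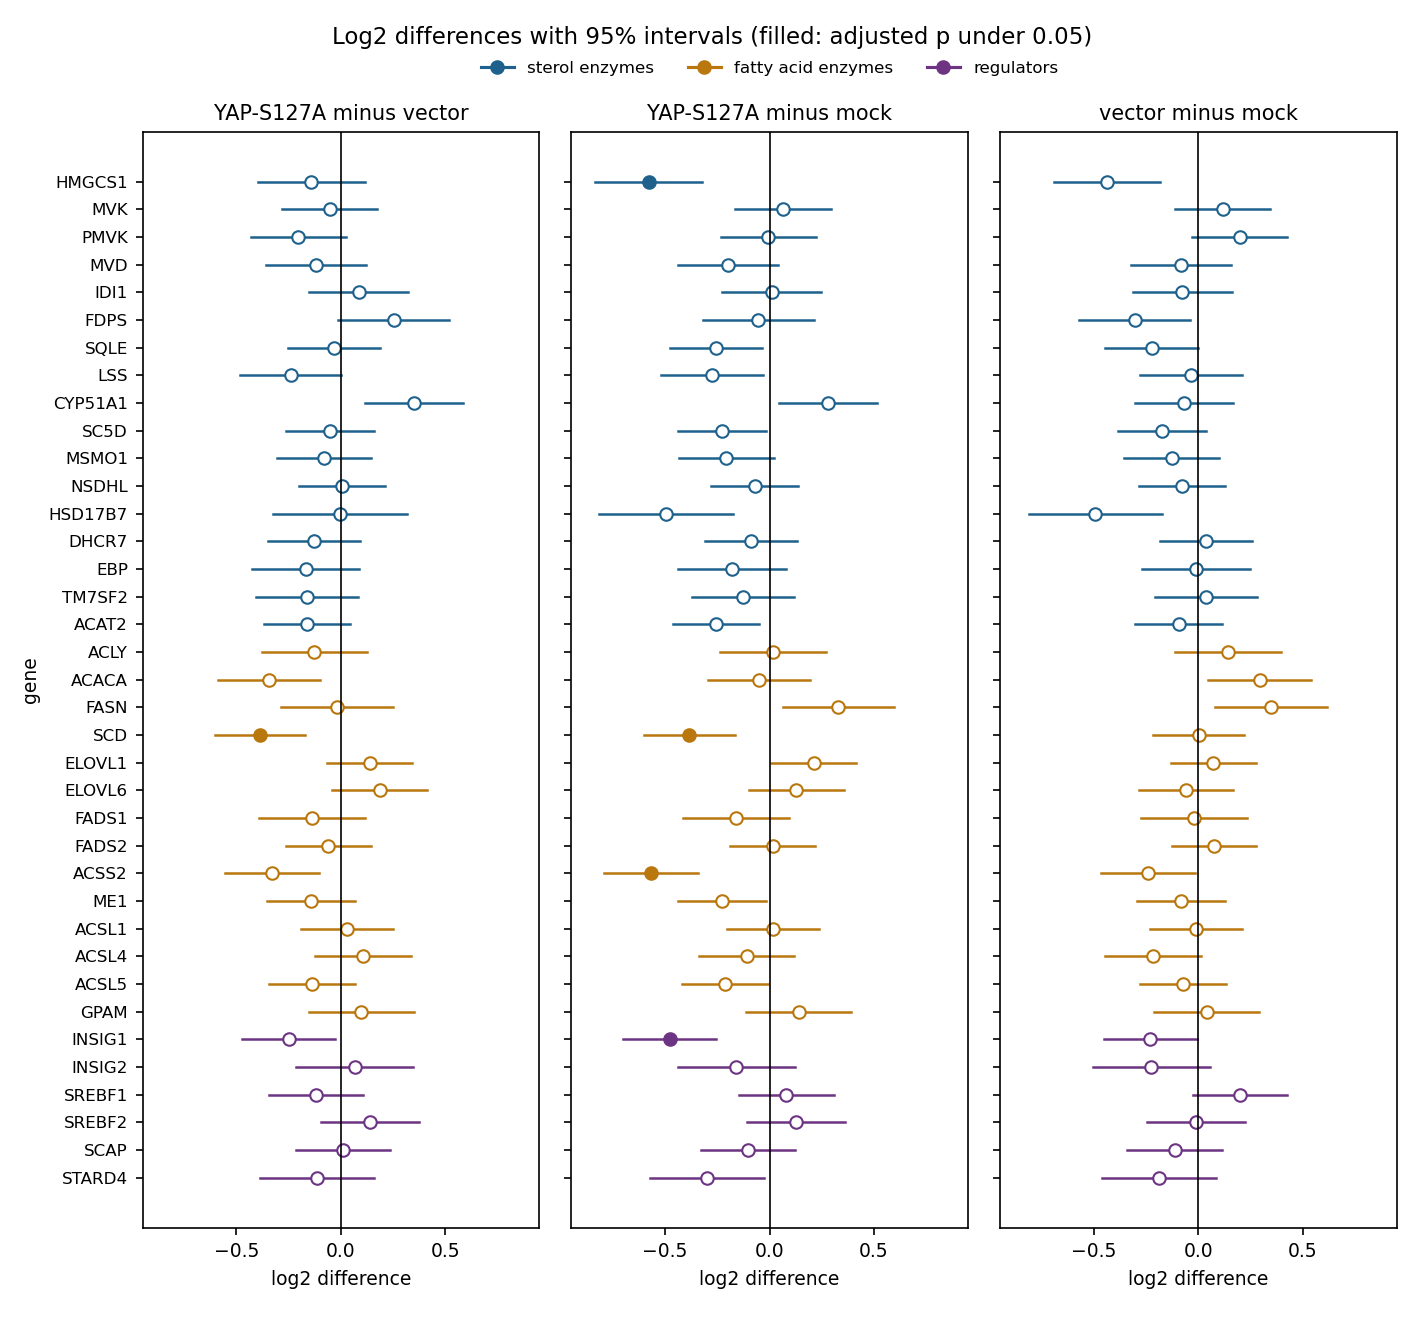
Log2 difference (horizontal axis) of each of the 37 genes (rows) for YAP-S127A minus vector, YAP-S127A minus mock and vector minus mock, with 95% intervals from the limma fit that are not adjusted for the number of genes. Colours mark the roles and filled points have an adjusted p under 0.05: SCD in the first panel, and HMGCS1, SCD, ACSS2 and INSIG1 in the middle one.

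The controls were also set against each other, vector against mock. By limma 0 of the 37 genes passed, as did only 2 of all genes (0.0124%), while 8 of the 37 had an unadjusted p under 0.05 (21.6%, against 5.63% of all genes). These 8 were HMGCS1, HSD17B7, FDPS, SQLE, ACSS2 and INSIG1 with differences below 0, from −0.49 to −0.22, and ACACA and FASN with differences above 0. The vector and YAP-S127A comparisons with mock share the mock arrays. For HMGCS1 the differences from mock were −0.58 in YAP-S127A and −0.44 in vector cells, for INSIG1 −0.48 and −0.23, for ACSS2 −0.57 and −0.24, and for SCD −0.38 and 0.004. Mock array 1 was the highest mock array for each of the 6 genes with a difference below 0. Without it, vector differed from mock by −0.28 for HSD17B7 (adjusted p = 0.93), −0.32 for HMGCS1, −0.19 for FDPS, −0.17 for SQLE, and −0.20 for both ACSS2 and INSIG1. Without mock array 3, HSD17B7 was instead called lower in vector than in mock cells (−0.69, adjusted p = 0.0283), and over all genes 8 then rose and 46 fell.

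Array by array, the median deviation of the 17 sterol enzymes from their gene means was −0.10, −0.12 and −0.06 on YAP-S127A arrays, −0.02, −0.003 and −0.04 on vector arrays, and 0.04, 0.09 and 0.11 on mock arrays. The groups did not overlap on this measure, whose steps were small: the median over all genes lay between −0.01 and 0.01 on every array. The measure rests on 1 probe per gene. Of 18 other probes of the 37 genes past the filter, 10 had the opposite sign to the probe used against vector, and 8 against mock. Among the sterol enzymes such a probe belonged to ACAT2, LSS, MSMO1 and SQLE against vector, and to ACAT2, LSS and MSMO1 against mock. The other DHCR7 probe had the same sign as the one used, and the remaining sterol enzymes had no other probe past the filter. With the mean of a gene's probes the median log2 difference of the sterol enzymes from mock was −0.13, where it was −0.18. For the 14 fatty acid enzymes the medians were −0.09, 0.01 and −0.09 on YAP-S127A arrays, 0.05, 0.02 and 0.02 on vector arrays, and 0.07, 0.08 and −0.06 on mock arrays, and the groups overlapped. The regulators had −0.12, −0.12 and 0.05 on YAP-S127A arrays, −0.03, −0.02 and 0.02 on vector arrays, and 0.26, −0.03 and 0.02 on mock arrays. Mock array 1 was the highest of the 9 arrays for 15 of the 37 genes (40.5%), where it was the highest for 15.6% of all genes tested. Without it, the median log2 difference of YAP-S127A from mock was −0.20 for the sterol enzymes, 0.03 for the fatty acid enzymes and −0.02 for the regulators. The sterol enzyme median also moved with other arrays: it was −0.075 against mock without mock array 3, and −0.047 against vector without vector array 2.

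**Figure D4:**
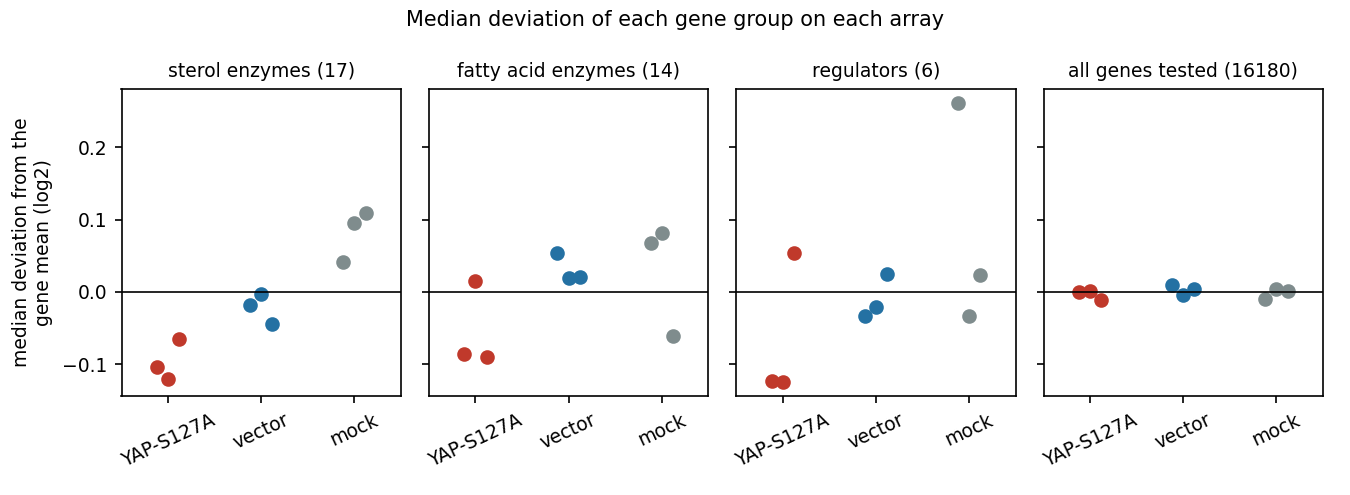
Median deviation of log2 intensity from the gene mean (vertical axis) for the sterol enzymes, fatty acid enzymes, regulators and all genes tested, with 1 point for each array of the YAP-S127A, vector and mock groups. The sterol enzymes lie between −0.12 and −0.06 on YAP-S127A arrays and between 0.04 and 0.11 on mock arrays, and the regulators are high on mock array 1 (0.26).

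Genes around the pathway were read from 4 further lists, of which 48 of 58 genes were tested. Against vector 2 of the 48 rose and 0 fell, and against mock 1 rose and 0 fell. Of all genes tested, 1.76% rose against vector and 2.18% against mock, so the count against mock lay near the background. ELOVL7, an elongase of saturated long chains, read 6.91, 6.99 and 6.95 on YAP-S127A arrays, 6.76, 6.25 and 6.48 on vector arrays, and 6.63, 6.52 and 6.36 on mock arrays. The YAP-S127A arrays lay above all controls, and ELOVL7 rose by 0.45 ± 0.12 against vector and 0.45 ± 0.12 against mock (limma, adjusted p = 0.0339 and 0.0327). Its control levels lay near the filter level, so the size of this rise may be compressed, and each call ended when any YAP-S127A array was left out, with adjusted p from 0.0844 to 0.132. The calls also ended without vector arrays 2 or 3 (against vector, 0.229 and 0.127) and without mock arrays 2 or 3 (against mock, 0.0693 and 0.104).

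ABCG1, a sterol exporter, read 7.44, 7.54 and 7.43 on YAP-S127A arrays, 7.15, 6.87 and 6.97 on vector arrays, and 7.37, 6.95 and 7.19 on mock arrays. It rose by 0.47 ± 0.11 against vector (adjusted p = 0.0196), and its difference from mock of 0.30 ± 0.11 did not pass (adjusted p = 0.167). The call against vector ended without YAP-S127A arrays 1 or 2 or vector arrays 2 or 3, with adjusted p up to 0.119, and when its probes were averaged (0.16, adjusted p = 0.463). The other exporter on the list, ABCA1, differed by −0.29 from vector and −0.10 from mock and did not pass. Of the lists for the isoprenoid branch (10 genes tested) and for glycerolipid synthesis (9 tested), 0 genes passed in a YAP-S127A comparison, with 1 and 3 at an unadjusted p under 0.05 against vector and 2 and 4 against mock. The shares of all genes at that level were 15.6% against vector and 17% against mock, and the counts for the isoprenoid branch lay near them. The counts for glycerolipid synthesis lay above them, with genes in both directions. Named after their values were seen, LPIN2 differed by −0.39 from vector and −0.34 from mock, and AGPAT2 by −0.35 and −0.38. Both lay below all control arrays, with differences near those of SCD (−0.39 and −0.38). LPIN1 differed by −0.16 from vector and −0.33 from mock. PLIN2 went the other way, by 0.31 and 0.21, and so did AGPAT1, by 0.08 and 0.28.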

How the data were processed

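Per the labels, total RNA was made into biotin-labelled cRNA for single-colour Illumina bead arrays, and BeadStudio is named in the submitters' processing notes, with no version or settings. The authors deposited probe signals for 47231 probes in intensity units on a linear scale, with no background subtraction to be seen and no detection p-values used here. The deposited series matrix holds log2 values, quantile normalized (all arrays with a median of 6.92), and served as an alternative.

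Signals were background-corrected with normexp (offset 50), log2-transformed and quantile normalized with limma 3.58.1 in R 4.3.3. The offset shrinks differences of dim genes. Probes with a mean above the lower quartile (6.18) were kept. Gene symbols came from GEO's platform annotation, updated through the gene ID to the RefSeq names of GRCh38.p14 (30074 of 30113 single-gene probes). The probe with the highest mean stood for a gene, which gave 16180 genes. One limma fit with a mean per group held all 9 arrays (6 residual and 16.4 prior degrees of freedom). A gene counted as called when its p, adjusted over all genes by Benjamini-Hochberg, was under 0.05. The fit was tested on simulated data.

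Members, lists, motifs and the rule for named genes (every member, and up to 6 called genes of the further lists) were chosen with earlier results of these data known. Alternatives covered background correction, normalization, filter, probe choice, moderation, weights, the arrays in the fit, a replicate block, a threshold of 0.01 and each array left out. No pairing of the arrays by replicate number was seen. Deviations of same-numbered arrays correlated between −0.15 and 0.10 across genes, and those of other-numbered arrays between −0.09 and 0.13. With so few arrays this check cannot exclude a pairing. The number of arrays limits the precision.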

Additional observations from a re-analysis of the deposited data

How the results depend on the processing

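There were 21 alternatives, 9 of them leaving out an array. The count of genes called against vector (1) became 0 after scaling to equal medians, with cyclic loess and at a threshold of 0.01, and 2 with only the arrays of the groups compared. It was 0 whenever a YAP-S127A or vector array was left out, and 1 whenever a mock array was. Against mock (4) it was 2 at the threshold of 0.01 and 1 to 5 without single arrays: 1 without YAP-S127A array 1, 2 without YAP-S127A array 2 and 2 without mock array 1. Between vector and mock (0) it was 0 to 1 without single arrays. The count against both controls (1) became 0 after equal medians, cyclic loess, array weights, only the arrays compared and the threshold of 0.01. It was 1 without mock array 3 and 0 when any other single array was left out. The cause of these shifts was not tested.

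The median log2 difference of the sterol enzymes from vector (−0.08) was −0.13 after scaling to equal medians and −0.11 with array weights, and −0.11 to −0.047 without single arrays. From mock (−0.18) it was −0.25 after equal medians, −0.13 with the deposited log2 values, −0.13 with the mean of a gene's probes and −0.14 with array weights, and −0.20 to −0.07 without single arrays. For vector against mock (−0.077) the range without single arrays was −0.11 to −0.07. The fatty acid enzymes had −0.089 against mock after equal medians, where the value was −0.02. Without single arrays their medians ran from −0.11 to −0.03 against vector, −0.11 to 0.03 against mock, and −0.063 to 0.062 for vector against mock. The sign changed with the array left out for YAP-S127A against mock and for vector against mock. The regulators ran from −0.10 to −0.04 against vector, −0.24 to −0.02 against mock, and −0.23 to −0.0079 for vector against mock. After scaling to equal medians 38.5% of all calls against vector and 31.3% against mock were rises, against 50.8% and 51.2% otherwise. Over all genes, 284 rose and 275 fell against vector, but 141 and 225 after equal medians, 161 and 110 at the threshold of 0.01, 189 and 143 with YAP-S127A array 1 left out, 178 and 121 with its array 2 left out, and 186 and 154 or 185 and 123 when vector array 2 or 3 was dropped. Against mock 352 rose and 335 fell, but 172 and 119 at the threshold of 0.01, 206 and 133 with YAP-S127A array 1 left out, 190 and 142 with its array 2 left out, and 205 and 170 when mock array 1 was dropped. Vector against mock gave 2 rises and 0 falls, but 8 and 46 without mock array 3.

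With a replicate block every gene called kept its call: SCD had adjusted p = 0.0468 against vector and 0.046 against mock, HMGCS1 0.00921, ACSS2 0.00389 and INSIG1 0.011 against mock. SCD lost its call against vector after equal medians and cyclic loess, and against mock with array weights and with only the arrays compared. At the threshold of 0.01 SCD, INSIG1, ELOVL7 and ABCG1 lost theirs. HSD17B7 passed against mock after scaling to equal medians (−0.55, adjusted p = 0.0375). ELOVL7 lost its calls after equal medians and with the deposited values, and against vector without background correction. ABCG1 lost its call after equal medians.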
